A study of Canis lupus familiaris with 18 samples.

Results

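The distal ends of the dog autosomes were taken as the last 2 Mb of CFA1 to CFA38 in the CanFam3.1 build, measured back from the highest peak coordinate seen on each chromosome in any of 12 *ChIP-seq* peak lists. A peak was counted at a distal end when its midpoint lay in that window. Of 1381743 peaks in all lists, 1349903 lay on these 38 autosomes and 55489 at their distal ends, of which 34740 were *E2F1* peaks and 20749 were *H3K27ac* peaks. The windows add up to 76 Mb of 2204 Mb, which is 3.45% of the autosomal length. They held 5.07% of the autosomal *E2F1* peaks and 3.12% of the autosomal *H3K27ac* peaks. Dog autosomes are acrocentric, with the centromere close to the tip, so the far tip carries the telomere of the long arm. The windows were placed by coordinate only, and neither the orientation of each chromosome in the build nor telomere repeats at its end were examined.

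*E2F1* is a transcription factor best known for driving genes of DNA replication and cell division, and it mostly binds close to promoters. *H3K27ac*, acetylation of lysine on histone H3, marks active promoters and enhancers, and wide stretches of it often lie over strongly active genes. Ends of mammalian chromosomes next to the telomere repeats are known to carry segmental duplications and stretches shared between chromosomes.

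The tissue was pons, a part of the brainstem, from 6 male dogs aged 12 to 16 years and mostly of mixed breed. In 3 of them, called ancestral, GTF2I carried a transposable element (TE) insertion, on a single allele by the study's methods, and in the other 3, called derived, the insertion was lacking. Each dog gave 1 *E2F1* list of narrow peaks and 1 *H3K27ac* list of broad peaks, which the authors called in each dog separately, so the dog is the replicate. The *E2F1* lists held 88236, 85871 and 133654 peaks among ancestral animals and 109663, 163356 and 118957 among derived animals. The *H3K27ac* lists held 141336, 101186 and 102983 peaks among ancestral animals and 120941, 99144 and 116416 among derived animals. Values per dog are always given in the order dog 1, dog 2 and dog 3 of a genotype. The lists include peaks weaker than the q thresholds of the study's methods, and all of them were counted unless said otherwise. The authors report unusual noise in their *E2F1* tracks, which led them to strict peak settings. They also warn that their data may have missed sites bound by *E2F1*. Densities of *E2F1* given here are thus densities of called peaks, weak ones included, and not of established binding sites. A peak list carries no reads, so the depth behind a single peak is not known here, and a region without a peak was not shown to be unbound.

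*E2F1* peaks were denser at the distal ends than along the rest of the same chromosomes in all 6 dogs. At the distal ends there were 54.4, 51.0 and 89.1 peaks per Mb among ancestral animals and 70.6, 118 and 73.8 among derived animals. The rest of the autosomes held 38.8, 37.7 and 58.2 peaks per Mb among ancestral animals and 47.9, 71.0 and 51.9 among derived animals. Derived dog 2 had the densest list in both compartments and ancestral dog 2 the sparsest. Taken as the median over 38 chromosomes of distal density over the density of the rest, the ratio was 1.32, 1.29 and 1.41 among ancestral animals and 1.55, 1.55 and 1.45 among derived animals. The mean log2 ratio was 0.51 ± 0.11 (SD, n = 6 dogs), a ratio of 1.42, with an exact two-sided sign-flip permutation p = 0.0312. That p is the smallest that 64 sign assignments of 6 dogs can give, and it became 0.0469 after Benjamini-Hochberg adjustment over 9 comparisons of distal end with rest. Here and below, this test asks whether the dogs agree in direction, not whether distal ends differ from other stretches of the genome. Such agreement was common in 2 Mb windows tiled along the autosomes. *E2F1* was denser than the rest of the chromosome in all 6 dogs in 31.8% of them and sparser in 50.2%. For *H3K27ac* these shares were 42.1% and 43.8%.

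The first 2 Mb of the chromosomes were rich in *E2F1* peaks too. There were 68.4 ± 17.6 peaks per Mb (SD, n = 6) in the first 2 Mb and 76.2 ± 24.8 in the last 2 Mb, against 50.9 ± 12.6 in all sequence outside the distal ends. The median distal density over that of the first 2 Mb had a mean log2 ratio of 0.03 ± 0.13 (n = 6, above 0 in 3 dogs, exact sign-flip permutation p = 0.625), a comparison added after the data were seen. In counts summed over chromosomes, also added afterwards, the last 2 Mb held more *E2F1* peaks than the first 2 Mb in 6 of 6 dogs, with a mean log2 ratio of 0.13 ± 0.09 (exact sign-flip permutation p = 0.0312, adjusted p = 0.0312 over the 2 antibodies). Whether the distal tip exceeded the first 2 Mb thus depended on the summary, and the ratio was smaller than that to the rest of the chromosome under both.

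Averaged over dogs, *E2F1* density climbed over a long distance toward the distal tip. It was 49.0 ± 11.8 peaks per Mb (SD, n = 6) farther than 16 Mb from the end, 53.0 ± 13.7 at 8 to 16 Mb, 60.7 ± 16.3 at 4 to 8 Mb and 62.2 ± 17.97 at 2 to 4 Mb. Inside the distal window it was 72.6 ± 22.3 at 1 to 2 Mb, 73.6 ± 26.2 at 0.5 to 1 Mb and 85.9 ± 28.7 in the last 0.5 Mb. The spread is that between lists of unequal size, and in each of the 6 dogs the last 0.5 Mb was the densest of these steps. The climb was not steady in the ancestral dogs, each of which was less dense at 0.5 to 1 Mb than at 1 to 2 Mb, and dogs 1 and 2 also less dense at 2 to 4 Mb than at 4 to 8 Mb. The edge of the window was no step in *E2F1* density. The 50 kb just inside it held 70.8 ± 21.0 *E2F1* peaks per Mb and the 50 kb just outside 74.0 ± 25.9. For *H3K27ac* these bands held 53.0 ± 6.11 and 47.2 ± 5.45 peaks per Mb.

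*H3K27ac* peaks went the other way. The distal ends held 56.1, 39.2 and 41.8 *H3K27ac* peaks per Mb among ancestral animals and 47.1, 42.5 and 46.5 among derived animals. The rest of the autosomes held 62.9, 45.0 and 45.6 among ancestral animals and 53.9, 43.9 and 51.7 among derived animals, so the distal density was the lower in every dog. The median ratio over chromosomes was 0.876, 0.881 and 0.881 among ancestral animals and 0.7999, 0.898 and 0.897 among derived animals, with derived dog 1 lowest. The mean log2 ratio was -0.20 ± 0.06 (n = 6, below 0 in 6 of 6 dogs, exact sign-flip permutation p = 0.0312, adjusted p = 0.0469). With a window of 1 Mb it was -0.35 and with 5 Mb -0.08, so the size of this difference changed with the window while its direction did not. Against the first 2 Mb of the chromosomes the mean log2 ratio was -0.12 ± 0.06 (below 0 in 6 of 6 dogs, exact sign-flip permutation p = 0.0312, adjusted p = 0.0625 over the 2 antibodies). In counts summed over chromosomes it was -0.08 ± 0.03 (below 0 in 6 of 6 dogs, exact sign-flip permutation p = 0.0312, adjusted p = 0.0312).

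*H3K27ac* was thinnest slightly inward of the tip. Peaks covered 9.88% ± 1.09 of the last 0.5 Mb (SD, n = 6), 7.62% ± 1.15 at 0.5 to 1 Mb, 9.54% ± 1.06 at 1 to 2 Mb and 9.69% ± 1.29 at 2 to 4 Mb. Farther in, they covered 13.0% ± 1.54 at 4 to 8 Mb, 12.4% ± 1.42 at 8 to 16 Mb and 11.4% ± 1.27 beyond 16 Mb. In each of the 6 dogs the step at 0.5 to 1 Mb had the lowest cover and the step at 4 to 8 Mb the highest. The first 2 Mb of the chromosomes were covered to 10.3% ± 1.39.

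The covered share of the sequence moved with density. *E2F1* peaks covered 2.34% ± 0.886 of the distal ends and 1.55% ± 0.433 of the rest, with a mean log2 ratio over chromosomes of 0.50 ± 0.12 (n = 6, above 0 in 6 of 6 dogs, exact sign-flip permutation p = 0.0312, adjusted p = 0.0469). With a window of 5 Mb this ratio was 0.30. The first 2 Mb of the chromosomes were covered by *E2F1* peaks to 2.22% ± 0.608. The distal cover was not the higher of these in every dog, and this comparison was not tested. *H3K27ac* peaks covered 9.15% ± 1.07 of the distal ends and 11.6% ± 1.31 of the rest, with a mean log2 ratio of -0.59 ± 0.08 (n = 6, below 0 in 6 of 6 dogs, exact sign-flip permutation p = 0.0312, adjusted p = 0.0469). Pooled over all autosomes in place of the median over chromosomes, it was -0.35, and with a window of 5 Mb -0.39.

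Most chromosomes followed the pattern for *E2F1*, and a minority opposed it. *E2F1* was denser at the distal end in all 6 dogs on 26 of 38 chromosomes (68.4%). When every autosome was tiled from its distal end into 1082 windows of 2 Mb, 31.8% of the windows were denser than the rest of their chromosome in all 6 dogs. *E2F1* was sparser at the distal end in all 6 dogs on 6 chromosomes, CFA5, CFA6, CFA9, CFA13, CFA15 and CFA21 (15.8%), against 50.2% of the windows. The dogs were divided on CFA1, CFA12, CFA14, CFA16, CFA32 and CFA34. *H3K27ac* was sparser at the distal end in all 6 dogs on 20 chromosomes (52.6%), against 43.8% of the windows, and denser in all 6 dogs on 13 (34.2%), against 42.1%. For *H3K27ac* the share of chromosomes thus lay near that of windows at large.

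The marks moved in opposite directions at a minority of the distal ends. On 10 chromosomes, CFA3, CFA8, CFA23, CFA24, CFA25, CFA26, CFA28, CFA30, CFA35 and CFA37, *E2F1* was denser and *H3K27ac* sparser at the distal end in all 6 dogs. This combination was rare along the autosomes, where it held for 20 of 1082 windows (1.85%), and 10 of those 20 were the distal ends themselves. Of the other windows, none was the next window inward from a distal end and 2 began within the first 4 Mb of a chromosome, on CFA1 and CFA9. Both marks were denser in all 6 dogs at 12 distal ends (31.6%), against 27.4% of the windows. Both were sparser on 5 chromosomes, CFA5, CFA6, CFA13, CFA15 and CFA21 (13.2%), against 37.2% of the windows. CFA9 alone had sparser *E2F1* and denser *H3K27ac* in all 6 dogs, a combination found in 5.82% of the windows. The median ratio of *E2F1* lay above that of *H3K27ac* on 35 of 38 chromosomes (92.1%), against 48.3% of the windows. Across the 38 chromosomes the median ratios of the antibodies had a Spearman rho of 0.611, and chromosome length had a rho of -0.105 with the *E2F1* ratio and -0.168 with the *H3K27ac* ratio. These are descriptions over chromosomes of the same 6 dogs, which are not independent.

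CFA22 had the highest *E2F1* ratio of all chromosomes. Its last 2 Mb held 159, 125 and 255 *E2F1* peaks among ancestral animals and 208, 323 and 180 among derived animals. The density there was 3.70, 3.02 and 4.18 times that of the rest of CFA22 among ancestral animals and 3.50, 4.92 and 2.995 times among derived animals. The dogs of the 2 genotypes overlapped. CFA22 also had the highest *H3K27ac* ratio, at 2.31, 1.84 and 2.36 among ancestral animals and 2.13, 2.28 and 2.19 among derived animals, from a rest of the chromosome that was poor in both marks, with medians of 29.9 *E2F1* and 28.9 *H3K27ac* peaks per Mb.

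The other chromosomes at the top for *E2F1* were CFA31, CFA33, CFA29 and CFA20. The distal end of CFA31 held a median of 99.8 *E2F1* peaks per Mb over the 6 dogs against 34.9 in the rest, with ratios from 2.60 to 4.34. On CFA33 the medians were 71.8 and 34.4 per Mb, with ratios from 1.94 to 3.53, and on CFA29 they were 58.0 and 25.5, with ratios from 1.94 to 3.92. These chromosomes, like CFA22, carried few *E2F1* peaks outside the end. CFA20 differed in that its rest was already dense, with a median of 73.9 *E2F1* peaks per Mb, and its distal end held 166.5, with ratios from 1.89 to 2.81. In medians over the 6 dogs, the distal window was the densest of all 2 Mb windows of its chromosome for *E2F1* on 3 of 38 chromosomes, CFA2, CFA22 and CFA29, and for *H3K27ac* on CFA33. By construction 3.51% of the windows are the densest of their chromosome.

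CFA5 stood at the bottom for both antibodies. Its last 2 Mb held 37, 21 and 47 *E2F1* peaks among ancestral animals and 61, 33 and 48 among derived animals, a median of 21 per Mb against 72.9 in the rest, with ratios from 0.144 to 0.434. The same 2 Mb held only 8, 5 and 5 *H3K27ac* peaks among ancestral animals and 8, 3 and 7 among derived animals, against a median of 65.5 per Mb in the rest. The *H3K27ac* ratio there ran from 0.0247 to 0.0558, and the median cover was 0.163% against 17.3%. It was the only distal window that was the sparsest *H3K27ac* window of its chromosome in medians over the dogs, as 3.51% of all windows are. A median of 0% of the *E2F1* peaks there touched an *H3K27ac* peak, against 40.7% in the rest of CFA5, and 12.2% were shared with another dog against 43.2%.

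The other chromosomes at the bottom for *E2F1* were CFA6, CFA13, CFA21 and CFA15. Their median ratios were 0.663, 0.674, 0.716 and 0.722, and no value of any of the 6 dogs reached 1, the highest being 0.946 on CFA13. On these 4 chromosomes a median of 14.7%, 16.7%, 7.69% and 7.85% of the distal *E2F1* peaks overlapped *H3K27ac*, against 40.2%, 31.0%, 40.0% and 34.2% in the rest.

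For *H3K27ac*, CFA22 was followed by CFA33, CFA18, CFA27 and CFA19. Their distal ends held medians of 91.8, 94.0, 92.5 and 48.2 *H3K27ac* peaks per Mb against 42.2, 45.8, 48.8 and 27.7 in the rest. On CFA18 the peaks covered a median of 31.6% of the distal end against 11.3% of the rest, and on CFA27 26.4% against 11.8%. At the other end stood CFA5, then CFA21, CFA8, CFA28 and CFA3, with medians of 12.5, 13.0, 16.5 and 15.0 peaks per Mb in the last 4 of these against 48.0, 44.9, 54.2 and 42.5. CFA8, CFA28 and CFA3 combined this lack of *H3K27ac* with dense *E2F1*, at median *E2F1* ratios of 1.74, 1.36 and 1.32. On these 3 chromosomes a median of 8.30%, 4.76% and 5.05% of the distal *E2F1* peaks lay in *H3K27ac*, against 41.5%, 42.0% and 34.6% in the rest.

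*E2F1* peaks had nearly the same width at the distal ends as elsewhere. The median over chromosomes of the median width was 283.5, 281 and 239 bp at the distal ends among ancestral animals and 230.0, 253 and 231 bp among derived animals, against 284, 280.0 and 235 bp and 228, 252.5 and 233 bp in the rest. The mean log2 ratio was 0.01 ± 0.01 (n = 6, above 0 in 5 of 6 dogs), which did not pass the exact sign-flip permutation test (p = 0.0938, adjusted p = 0.121). The sign turned with the q thresholds of the study's methods and with a window of 5 Mb. All 6 dogs had wider *E2F1* peaks at the distal end on 9 chromosomes (23.7%), namely CFA2, CFA7, CFA8, CFA10, CFA18, CFA22, CFA25, CFA31 and CFA35, against 7.95% of the 2 Mb windows. They had narrower ones on CFA1, CFA5 and CFA9 (7.89%), against 15.4% of the windows.

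*H3K27ac* peaks were narrower at the distal ends than in the rest, by the median over chromosomes. The median over chromosomes of the median width was 1121 ± 63.3 bp (SD, n = 6) at the distal ends and 1234 ± 76.8 bp in the rest. The mean log2 ratio was -0.15 ± 0.02 (n = 6, below 0 in 6 of 6 dogs, exact sign-flip permutation p = 0.0312, adjusted p = 0.0469). Peaks wider than 5 kb made up 8.34% ± 1.06 of the distal *H3K27ac* peaks and 10.2% ± 1.24 of the others. All 6 dogs had narrower *H3K27ac* peaks at the distal end on 14 chromosomes (36.8%), near the 32.1% of the windows. They had wider ones on CFA18 only (2.63%), against 18.5% of the windows. On CFA18 the median width was 1656 bp against 1225 bp. Windows at large were thus also narrower more often than wider, which a test against equal width does not allow for.

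The share of peaks found in another dog was not shown to differ at the distal ends. A distal *E2F1* peak overlapped an *E2F1* peak of another dog in 44.0%, 51.4% and 43.8% of cases among ancestral animals and in 35.04%, 39.9% and 38.2% among derived animals, against 40.6%, 47.8% and 42.2% and 33.9%, 40.4% and 36.3% in the rest. The median difference over chromosomes was 0.57 ± 1.56 percentage points (n = 6, above 0 in 4 of 6 dogs, exact sign-flip permutation p = 0.406, adjusted p = 0.457). Pooled over autosomes, as in the percentages just given, it was 1.86 percentage points (exact sign-flip permutation p = 0.0625, adjusted p = 0.0703). Its sign turned under several alternatives, and with a window of 5 Mb it was -3.92 percentage points and passed the test (exact sign-flip permutation p = 0.0312, adjusted p = 0.0402). *H3K27ac* peaks were shared far more widely, in 91.0% ± 4.92 of cases at the distal ends and 90.8% ± 5.28 in the rest, a median difference of 0.186 ± 0.993 percentage points (n = 6, above 0 in 3 of 6 dogs, exact sign-flip permutation p = 0.656, adjusted p = 0.656). Between pairs of dogs, the bases shared over the bases covered by either (the Jaccard index) had a median of 0.0598 for *E2F1* and 0.561 for *H3K27ac* at the distal ends, and 0.0661 and 0.574 in the rest, over 15 pairs. The distal index was the higher in 4 of 15 pairs for *E2F1* and in 0 of 15 for *H3K27ac*, pairs that share dogs and were not tested.

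Single chromosomes nevertheless differed in *E2F1* sharing in opposite directions. It was higher at the distal end in all 6 dogs on 11 chromosomes (28.9%), against 17.8% of the windows, and lower on 12 (31.6%), against 44.7%. The 11 were CFA2, CFA7, CFA8, CFA11, CFA18, CFA20, CFA22, CFA31, CFA33, CFA35 and CFA38. All of these were also denser in *E2F1* at the distal end in all 6 dogs. The 12 included CFA5, CFA6, CFA9, CFA13, CFA15 and CFA21, which were sparser in *E2F1* in all 6 dogs. They also included CFA27, CFA36 and CFA37, which were denser in all 6 dogs. The part of peak density in sharing was not tested. On CFA20 a median of 65.4% of the distal *E2F1* peaks were shared against 49.3% in the rest, and on CFA18 61.8% against 43.8%. On CFA21 the medians were 18.5% and 37.7%, and on CFA15 20.2% and 38.6%. *H3K27ac* sharing was higher in all 6 dogs on CFA9 and CFA10 (5.26%), against 9.89% of the windows, and lower in all 6 dogs on 0 chromosomes, against 9.06% of the windows.

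Distal *E2F1* peaks lay in *H3K27ac* less often. The share of *E2F1* peaks touching any *H3K27ac* peak called in that same animal, by 1 bp or more, was 25.7%, 28.6% and 24.2% at the distal ends among ancestral animals and 16.9%, 29.4% and 19.2% among derived animals. In the rest of the autosomes it was 40.8%, 40.3% and 37.9% among ancestral animals and 28.9%, 45.1% and 32.2% among derived animals. The median difference over chromosomes was -14.6 ± 1.03 percentage points (n = 6, below 0 in 6 of 6 dogs, exact sign-flip permutation p = 0.0312, adjusted p = 0.0469). The *H3K27ac* cover was lower at the distal ends as well, and its part in the lower overlap was not tested. Divided by the *H3K27ac* cover of the same compartment, the overlap was 2.66 ± 0.683 times the cover at the distal ends and 3.27 ± 0.678 times in the rest, and it was the lower at the distal ends in each dog. The overlap share was 37.4% ± 5.95 beyond 16 Mb from the end, 40.1% ± 6.38 at 8 to 16 Mb, 38.4% ± 6.07 at 4 to 8 Mb, 29.5% ± 4.92 at 2 to 4 Mb, 26.2% ± 5.54 at 1 to 2 Mb, 21.0% ± 5.05 at 0.5 to 1 Mb and 22.8% ± 4.44 in the last 0.5 Mb. In the first 2 Mb of the chromosomes it was 29.2% ± 5.40.

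The lower overlap was found on most chromosomes. It was lower at the distal end in all 6 dogs on 28 of 38 chromosomes (73.7%), against 44.1% of the 2 Mb windows, and higher in all 6 dogs on CFA9 and CFA18 (5.26%), against 23.7% of the windows. Windows at large thus also had a lower overlap more often than a higher one, which a test against no difference does not allow for. On CFA9 a median of 52.3% of the distal *E2F1* peaks lay in *H3K27ac* against 47.0% in the rest, and on CFA18 57.1% against 35.2%. On CFA24, CFA16 and CFA1, which were chosen after their values were seen, the distal medians were 10.5%, 6.27% and 10.1% against 43.7%, 29.7% and 40.5%.

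Joining overlapping or adjoining peaks across animals gave 25747 distal *E2F1* regions and 5598 distal *H3K27ac* regions. Of the *E2F1* regions, 78.9% were called in 1 dog only and 14.1% in 2 dogs, against 80.1% and 13.3% in the rest of the autosomes. All 6 dogs shared 0.435% (112 regions), against 0.541% of all autosomal *E2F1* regions. Of the *H3K27ac* regions, 35.2% were called in 1 dog only, against 37.1% in the rest, and 27.2% (1524 regions) in all 6, against 27.3% of all autosomal *H3K27ac* regions. The *E2F1* regions called in all 6 dogs were unevenly spread. CFA20 had 21, CFA35 16, CFA18 12 and CFA7 10, together 59 of the 112 (52.7%), while these 4 chromosomes held 15.04% of all distal *E2F1* regions. The 17 chromosomes with none held 36.6% of all distal *E2F1* regions. Each distal end had at least 1 *H3K27ac* region called in all 6 dogs, from 1 on CFA5 to 88 on CFA33.

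Of the 112 distal *E2F1* regions called in all 6 dogs, 51 (45.5%) lay over an *H3K27ac* peak in all 6 dogs and 32 (28.6%) in no dog. Of the 2659 such regions in the rest of the autosomes, 73.1% lay over *H3K27ac* in all 6 dogs and 13.1% in none. The distal ends thus held, among their most widely shared *E2F1* regions, a larger share without *H3K27ac*, a difference given as a description and not tested.

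The 10 distal *E2F1* regions with the highest lowest rank by fold enrichment within the lists lay on CFA20, CFA18, CFA10, CFA35 and CFA22. The fold is the enrichment of a peak over its local background, as the authors' caller gave it. First came chr20:57395297-57395794, whose fold was 412, 7892 and 8646 among ancestral animals and 2080.4, 6797 and 14019.9 among derived animals. It held all 6 of the distal *E2F1* peaks above 100-fold, of 121 such *E2F1* peaks on the autosomes. An *H3K27ac* peak lay there in all 6 dogs too, and it exceeded 100-fold in ancestral dogs 2 and 3, at 289.7 and 111. These were the 2 distal *H3K27ac* peaks above 100-fold, of 17 on the autosomes. The folds of the genotypes overlapped at this site, and no other distal peak passed 100-fold in either mark.

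The next *E2F1* regions had far lower folds, though by the rule that chose them they ranked high in every list. At chr18:55385411-55386046 the fold ran from 9.50 to 24.4 over the 6 dogs, with a median of 13.9, and at chr10:68798664-68799463 from 5.92 to 15.9, with a median of 11.7. Both lay over *H3K27ac* in all 6 dogs. At chr35:24998865-25000826 the fold ran from 5.73 to 15.9, and at chr18:54685391-54691439, a merged region of 6049 bp, it was at least 5.22 with a median of 12.6, again over *H3K27ac* in all 6 dogs. At chr20:56433782-56435119 and chr20:56180796-56182376 the lowest folds were 4.95 and 5.51, with *H3K27ac* in all 6 dogs. The remaining 3 were nearly free of *H3K27ac*. At chr35:26285126-26285740 the fold ran from 5.60 to 12.8 and no dog had an *H3K27ac* peak. At chr20:56627192-56630713 and chr22:61381339-61381617 the folds ran from 4.95 to 13.9 and from 5.42 to 8.49, with an *H3K27ac* peak in 1 dog each. No annotation of CanFam3.1 was used here, so no gene is named at these regions.

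The widest *H3K27ac* regions called in all 6 dogs lay on CFA27, CFA9, CFA18, CFA2, CFA26 and CFA33. The widest by median was chr27:45478814-45543346, where peaks spanned 47318, 54520 and 46444 bp among ancestral animals and 48888, 50224 and 46418 bp among derived animals. It lay 329513 bp from the end of CFA27, and a second, chr27:45544561-45578386 with a median of 29284 bp, followed closely toward the end. On CFA9, chr9:60754510-60803196 had a median of 41262 bp with a range from 30941 to 46171, and chr9:60938347-60968762 a median of 29021.5 bp, with its edge 99996 bp from the end. CFA18 had 3 of the 10, chr18:54660874-54706516, chr18:54418419-54458991 and chr18:53943174-53979895, with medians of 39865, 38427.5 and 31775.5 bp. The first of these had folds from 11.9 to 23.8, and it contains the *E2F1* region of 6049 bp named above. The other 3 were chr2:83939118-83981146, chr26:37325368-37362163 and chr33:30461357-30493740, with medians of 39725, 34912.5 and 28415 bp. In all 10 the widths of the 2 genotypes overlapped.

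The last *H3K27ac* peak ended a median of 27.3 kb from the end, as the median over 38 chromosomes of the median over dogs, with a range of 0.0765 to 620.3 kb. It lay farthest in on CFA16, and on CFA8 the median was 484 kb. Since the end was defined by the outermost peak of the 12 lists, which was an *E2F1* peak on 34 chromosomes and an *H3K27ac* peak on 4, distances to it were not compared between the antibodies.

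Regions called in all 6 dogs within 10 kb of the end were singled out after their values were seen. They numbered 12 of the 112 distal regions called in all 6 dogs for *E2F1* and 7 of 1524 for *H3K27ac*. Because an *E2F1* peak set the end on most chromosomes, these counts were not compared between the antibodies. Of the 12, 5 were on CFA7, 2 each on CFA13 and CFA22, and 1 each on CFA4, CFA31 and CFA32. The region at the tip of CFA32, chr32:38804420-38808528, was 4109 bp wide, with a fold of only 2.02 to 2.28 but a deposited -log10 q of 170 to 493. Between position 80959448 of CFA7 and its end at 80974523 lay 5 regions with folds from 2.32 to 11.7, and no dog had *H3K27ac* over any of them. At the tip of CFA31, chr31:39895483-39895897 had folds from 4.91 to 14.7. The 7 *H3K27ac* regions lay on CFA2, CFA4, CFA12, CFA23, CFA36 and CFA37. The strongest of them, chr4:88265043-88272239, had folds from 8.46 to 13.0 and contains the *E2F1* region chr4:88267495-88269165, which was the only 1 of the 12 over *H3K27ac* in all 6 dogs.

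The study compared dogs with and without the TE insertion, and the distal ends were compared between these genotypes as well. The mean log2 ratio of *E2F1* density was 0.42 in the ancestral and 0.60 among derived animals, a difference of 0.18, and the groups did not overlap (n = 3 against 3, exact permutation p = 0.1, adjusted p = 0.2 over 2 antibodies). That p is the smallest that 20 assignments can give, so the design could not reach 0.05. With the q thresholds of the study's methods the difference was 0.08 and with an equal number of peaks per list 0.09. Pooled over autosomes it was 0.09 and with a window of 5 Mb 0.07. Under each of these the groups overlapped (exact permutation p from 0.2 to 0.4). A window of 1 Mb gave 0.15, the rest without its first 2 Mb 0.18 and no peaks above 100-fold 0.18. Under each of the latter settings the groups did not overlap (exact permutation p = 0.1). For *H3K27ac* density the difference was -0.03 (mean log2 ratio -0.19 in ancestral and -0.21 in derived dogs, exact permutation p = 1, adjusted p = 1). *E2F1* regions present in each of 3 dogs with the same genotype but absent from the opposite group numbered 27 for ancestral dogs (0.105% of distal regions) and 54 for derived dogs (0.21%), against 0.11% and 0.175% of all autosomal *E2F1* regions. For *H3K27ac* they numbered 15 (0.268%) and 22 (0.393%), against 0.273% and 0.328%. These shares lay near those of the autosomes as a whole, and 10 of the 54 *E2F1* regions of derived dogs (18.5%) were on CFA2, which held 4.50% of all distal *E2F1* regions. This share was not tested.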

How the data were processed

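*ChIP-seq* was done on flash frozen pons of 6 dogs with antibodies to *E2F1* and *H3K27ac*. Genotype and replicate number come from the sample labels, and lists with the same genotype and number are from the same dog. Input libraries were not analysed here. Upstream, the authors used molecular identifiers to drop duplicates, trimmed the reads, placed them on CanFam3.1 with multi-mapped reads retained, and ran macs2 on every dog separately. The submitters' processing notes name bcl2fastq 2.17, Trim Galore 0.0.6, deepTools 3.5.1, MACS2 2.2.0 and Bowtie 1.1.2. The study's methods instead name a later Bowtie where they describe keeping multi-mapped reads, so the version used is not settled. Reads that map to several places can raise peaks in repeats, and their part in these results was not tested. Whether input entered the calls is not given in the sources used here. For differential binding the study dropped peak sites enriched in input, a filter that was not applied here.

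The deposited lists give macs2's score, which was not used. They also give fold enrichment, which is a ratio to local background that the authors computed, and the authors' -log10 p and -log10 q values, which for broad peaks are means across the region. The lists were not scaled to each other, so medians and ranges of fold or q over dogs, and the limit of 100-fold, describe the lists as deposited. Because the lists hold no reads, counting errors and limits of detection could not be computed.

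All deposited peaks were used, including those weaker than the q thresholds of the study's methods (0.0005 for *E2F1* and 0.05 for *H3K27ac*). Per dog and chromosome, density, covered share, median width, percent shared with another dog and percent of *E2F1* peaks in *H3K27ac* were set against the rest of the chromosome, and the median over 38 chromosomes gave 1 value per dog. Those values entered two-sided exact sign-flip tests (64 assignments, 9 comparisons) and, between genotypes, exact permutation tests (20 assignments, 2 comparisons). Dogs share partners in the sharing test, so its 6 values are not fully independent. Named chromosomes are the 5 highest and 5 lowest by median log2 density ratio for each antibody. Named regions are the 10 *E2F1* regions with the highest lowest within-list percentile by fold and the 10 *H3K27ac* regions widest by median, among distal regions called in all 6 dogs. The members and lists were chosen with earlier results of these data known. Alternatives were those q thresholds, windows of 1 and 5 Mb, the rest without its first 2 Mb, no peaks above 100-fold, values pooled over autosomes, an equal number of peaks per list, an overlap of 50%, each dog left out, and the replicate number as a block. The code was tested on simulated data. Coordinates are 1-based. Python 3.11.15 with numpy 2.4.6 and pandas 2.3.3 was used. Genes, motifs and base composition were not analysed here, because no CanFam3.1 sequence or annotation was used.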

Additional observations from a re-analysis of the deposited data

Results flagged for a closer look

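Of 20 sets of 6 values, 3 had 1 dog far from the others by Dixon's criterion (a gap over 0.625 of the range), where chance gives about 1 set in 20. Derived dog 1 had the lowest log2 ratio of *H3K27ac* density, -0.32, with the others between -0.19 and -0.15. Derived dog 2 had *E2F1* peaks over 4.05% of the distal ends, with the others between 1.79% and 2.59%, and its *E2F1* list was also the longest. Ancestral dog 1 shared 81.8% of its distal *H3K27ac* peaks with another dog, with the others between 90.8% and 95.9%, and its *H3K27ac* list was the longest. The part of list length in these values was not tested.

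By the median over chromosomes, the *E2F1* density of the distal ends against the first 2 Mb moved in opposite directions in the genotypes. The log2 ratio was -0.13, -0.01 and -0.10 among ancestral animals and 0.18, 0.16 and 0.06 among derived animals. The difference was 0.21 (exact permutation p = 0.1, the smallest that 3 against 3 dogs allow), in a comparison added after the data were seen. In counts summed over chromosomes the direction was the same in both genotypes, with log2 ratios of 0.0454, 0.0616 and 0.17 among ancestral animals and 0.10, 0.29 and 0.13 among derived animals, and the difference was 0.0832 (exact permutation p = 0.3).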

How the results depend on the processing

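Beside the values reported, 155 alternative values were computed for 13 results. Of these, 93 kept their direction and their side of the threshold, 38 kept the direction but not the threshold, and 16 changed direction. The other 8 were counts of chromosomes, from 20 to 25 for *E2F1* against 26 reported and from 18 to 23 for *H3K27ac* against 20. For many values the side of the threshold was fixed in advance. No genotype comparison could pass under any setting, and none of the 66 values with a dog left out could pass. *E2F1* density and cover, *H3K27ac* density, cover and width, and the *E2F1* overlap with *H3K27ac* kept their direction under every alternative run.

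With the q thresholds of the study's methods the log2 ratio of *E2F1* width was -0.0079 and the difference in *E2F1* sharing -3.80 percentage points. With a window of 1 Mb *E2F1* sharing differed by -0.141 percentage points. With 5 Mb the log2 ratio of *E2F1* width was -0.0046, sharing differed by -3.92 points for *E2F1* and -0.583 for *H3K27ac*, and the genotype difference in *H3K27ac* density was 0.0133. That genotype difference was 0.034 pooled over autosomes and 0.013 with an equal number of peaks per list. An overlap of 50% gave -1.50 points for *E2F1* sharing. The cause was not tested. Against the first 2 Mb, an alternative chosen after seeing the data, the log2 density ratio was 0.0276 for *E2F1* and -0.12 for *H3K27ac*, and in counts summed over chromosomes, chosen likewise, 0.13 and -0.08.

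With each dog left out in turn, log2 ratios ran from 0.48 to 0.54 for *E2F1* density, -0.21 to -0.17 for *H3K27ac* density, 0.46 to 0.53 for *E2F1* cover, -0.61 to -0.57 for *H3K27ac* cover, 0.0072 to 0.0135 for *E2F1* width and -0.15 to -0.14 for *H3K27ac* width. Differences in percentage points ran from -0.758 to 0.464 for *E2F1* sharing, -0.268 to 0.536 for *H3K27ac* sharing and -14.8 to -14.3 for the *E2F1* overlap with *H3K27ac*. Genotype differences ran from 0.15 to 0.22 for *E2F1* and -0.0541 to 0.0298 for *H3K27ac*. *E2F1* sharing turned negative without ancestral dog 1 (-0.448) and without derived dogs 1 (-0.564), 2 (-0.758) and 3 (-0.049), *H3K27ac* sharing without derived dog 3 (-0.268), and the *H3K27ac* genotype difference turned positive without derived dog 1 (0.0298). With 5 dogs the smallest exact sign-flip p is 0.0625, so no comparison can pass then.

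With the replicate number as a replicate block, the genotype difference was 0.18 for *E2F1* (exact permutation p = 0.25) and -0.03 for *H3K27ac* (exact permutation p = 1), where 0.25 is the smallest p of 8 assignments. Same-numbered dogs share only a number.

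Distal ends denser in *E2F1* in all 6 dogs numbered 20 with the q thresholds, 24 with 1 Mb, 22 with 5 Mb and 25 with equal numbers of peaks, where 26.2%, 29.6%, 32.5% and 30.6% of all windows were. Those sparser in *H3K27ac* numbered 21, 23, 18 and 18, where 44.2%, 45.2%, 45.3% and 43.99% of all windows were. These count alternatives were chosen after seeing the data. The lists hold no reads, so what depth limits could not be computed.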

Other observations

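The X chromosome was not among the members, and its distal end (the last 2 Mb before position 123860563) was denser in both marks in all 6 dogs. It held 29, 65 and 118 *E2F1* peaks among ancestral animals and 58, 136 and 79 among derived animals, at 1.13, 2.21 and 2.40 times the density of the rest of X among ancestral animals and 1.51, 2.71 and 1.67 times among derived animals. It held 82, 55 and 63 *H3K27ac* peaks among ancestral animals and 58, 63 and 65 among derived animals.

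A short *E2F1* peak at the very tip of CFA12, chr12:72497921-72498078, was called in ancestral dog 3 and derived dog 3 only. Its deposited -log10 q was 7081 and 3072 in these dogs. No dog had an *H3K27ac* peak there. The region chr2:85408838-85409188, 14211 bp from the end of CFA2, was called in all 6 dogs with a -log10 q of 702, 485 and 281 among ancestral animals and 787, 542 and 326 among derived animals.

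Distal peaks ranked slightly higher on average by fold within their own lists. The median percentile of distal *H3K27ac* peaks was 53.6 ± 0.753 (SD, n = 6) against 49.7 ± 0.0645 for the rest, and that of distal *E2F1* peaks 50.9 ± 1.94 against 48.4 ± 2.41. The percentile was higher at the distal ends in 6 of 6 dogs for *H3K27ac* and in 5 of 6 for *E2F1*, where derived dog 2 had 47.1 in both. The mean *E2F1* difference was 2.51 percentile points, and 1.62 without ancestral dog 3. Peaks of equal fold all took the lowest rank of their block, which can move a median percentile. In ancestral dog 3 the *E2F1* median was 51.0 at the distal ends and 44.0 in the rest, though the rest is most of the list. These differences, and the part of ties in them, were not tested.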
